A study of Drosophila melanogaster with 9 samples.

Results

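The insulin and TOR growth pathway was followed through 10 genes of 16727 in the count tables: InR, chico, Akt1, foxo, Thor, Tor, Tsc1, gig, Rheb and ImpL2. They were taken by symbol, as the insulin receptor pathway, the brakes on TOR and an insulin antagonist, with earlier results of these data known. All 10 passed the filter on low counts, with 6226 to 17578 counts each over 9 libraries.

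Insulin-like peptides bind the receptor InR, and the signal passes through the adaptor chico and a lipid kinase to the kinase Akt1. Active Akt1 keeps the transcription factor foxo out of the nucleus and weakens the complex of Tsc1 and gig (the fly TSC2), which holds back the GTPase Rheb, the activator of the kinase Tor. In the larval brain this pathway is known for waking neuroblasts (neural stem cells) from quiescence when the larva feeds, while a parallel route through the receptor Alk is known to keep brain growth going when food is short.

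RNA-seq of polyadenylated transcripts covered Drosophila melanogaster brain tumours at 3 stages, with 3 libraries each. All tumours came from clones in which an actin flip-out driver, active in most cell types, overexpressed HA-tagged dpn and E(spl)mγ (2 neuroblast repressors of the HES family) beside GFP. Primary libraries held GFP-positive cells, sorted after collagenase treatment from 150 brains each of larvae of the third instar, 4 days after clone induction. T0 libraries held unsorted GFP tumour masses from 25 adult w1118 hosts each, grown for 8 to 10 days after the first transplantation of brains of this genotype. T3 libraries held the same kind of masses after the fourth transplantation, with the same host number and growth time. Each library is a pool of animals. No library of normal brain was analysed here, so all values compare tumour stages. Sorting, dissociation, host age and growth time differ between primary and transplanted groups together and cannot be told apart.

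Depth was 7932772 to 14093032 counts per library. dpn was at 601 to 702 CPM (counts scaled to a common library size with TMM factors) in primary libraries and at 176 to 322 CPM in the 6 transplanted libraries. The counts do not tell the transgene from the endogenous gene. The neuroblast marker list had counts for 8 of 8 genes in every group, with summed levels of 4086 to 4720 CPM in primary, 4228 to 5182 in T0 and 4202 to 4628 in T3. Its members moved in both directions: 3 rose and 3 fell in T0, and 1 rose and 2 fell in T3. Among them mira, the most abundant, averaged 1834, 2491 and 2418 CPM and rose in both, while ase averaged 195, 39.3 and 44.6 CPM and fell in both (-2.31 ± 0.22 and -2.12 ± 0.21, adjusted p = 7.49e-06 and 1.1e-05). Markers of 10 neuronal genes summed to 1187 to 2097 CPM in primary, 355 to 549 in T0 and 320 to 431.5 in T3. Glial markers, 7 genes, summed to 429 to 635, 663 to 892 and 465 to 707 CPM in the same order. Of the 6 tested, 1 rose (Eaat1, at 192, 510 and 366 CPM on average) and 3 fell in each comparison, with median log2 fold changes of -1.36 and -0.64. Hemocyte (blood cell) markers, 8 genes, summed to 44.0 to 53.2, 96.6 to 206.5 and 82.8 to 106.5 CPM, with He at 0 in primary. The largest part was crq, at 36.1, 79.6 and 62.7 CPM on average. Of the 7 tested, 5 rose in each comparison. In T0, 0 fell, and in T3 1 fell (Pxn, -1.98 ± 0.55, adjusted p = 0.0112). Adult fat body markers, 10 genes, summed to 420 to 616, 764.5 to 948 and 483 to 778 CPM, with Lsp2, to and Obp99b at 0 in primary and Fbp1 at 0 in T0. Most of that sum was FASN1, at 402 to 820 CPM and not called. Of the 6 tested, 4 rose in T0 and 3 in T3 and 0 fell, the yolk protein gene Yp1 from 1.31 to 3.10 CPM in primary to 27.3 to 102 CPM in T0 and 1.61 to 37.4 CPM in T3. T0 replicate 2 stood apart, with 52.0 CPM of gut markers and 55.6 CPM of ovary markers against at most 4.76 and 8.98 CPM in T0 replicates 3 and 4.

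Set against primary, the secreted antagonist ImpL2 fell in both transplanted groups, while Thor, foxo, gig and InR rose in both. A gene was called at an adjusted p under 0.05 in edgeR's quasi-likelihood test over all 9082 genes tested. In T0, 4 of the 10 genes rose and 1 fell, where 22.4% of all genes rose and 23.2% fell (45.6% in either direction). In T3, 5 rose and 2 fell, where 23.1% of all genes rose and 24.1% fell (47.2% in either direction). The count of 5 in T0 is near that background, and the count of 7 in T3 was 3 without T3 replicate 1 and 4 without primary replicate 2. Non-overlapping libraries were seen for 5 higher and 2 lower genes of the 10 in T0, where 27.4% of all genes were higher and 27.4% lower in this way (54.8% in all). In T3 the numbers were 5 and 2 again, where 28.9% of all genes were higher and 29% lower (57.9% in all). The median log2 fold change of the 10 genes was 0.28 in T0 and 0.44 in T3, beside 0.01 and -0.00 over all genes. In bulk libraries, fewer cells that express a gene and less RNA per cell cannot be told apart.

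**Figure D1:**
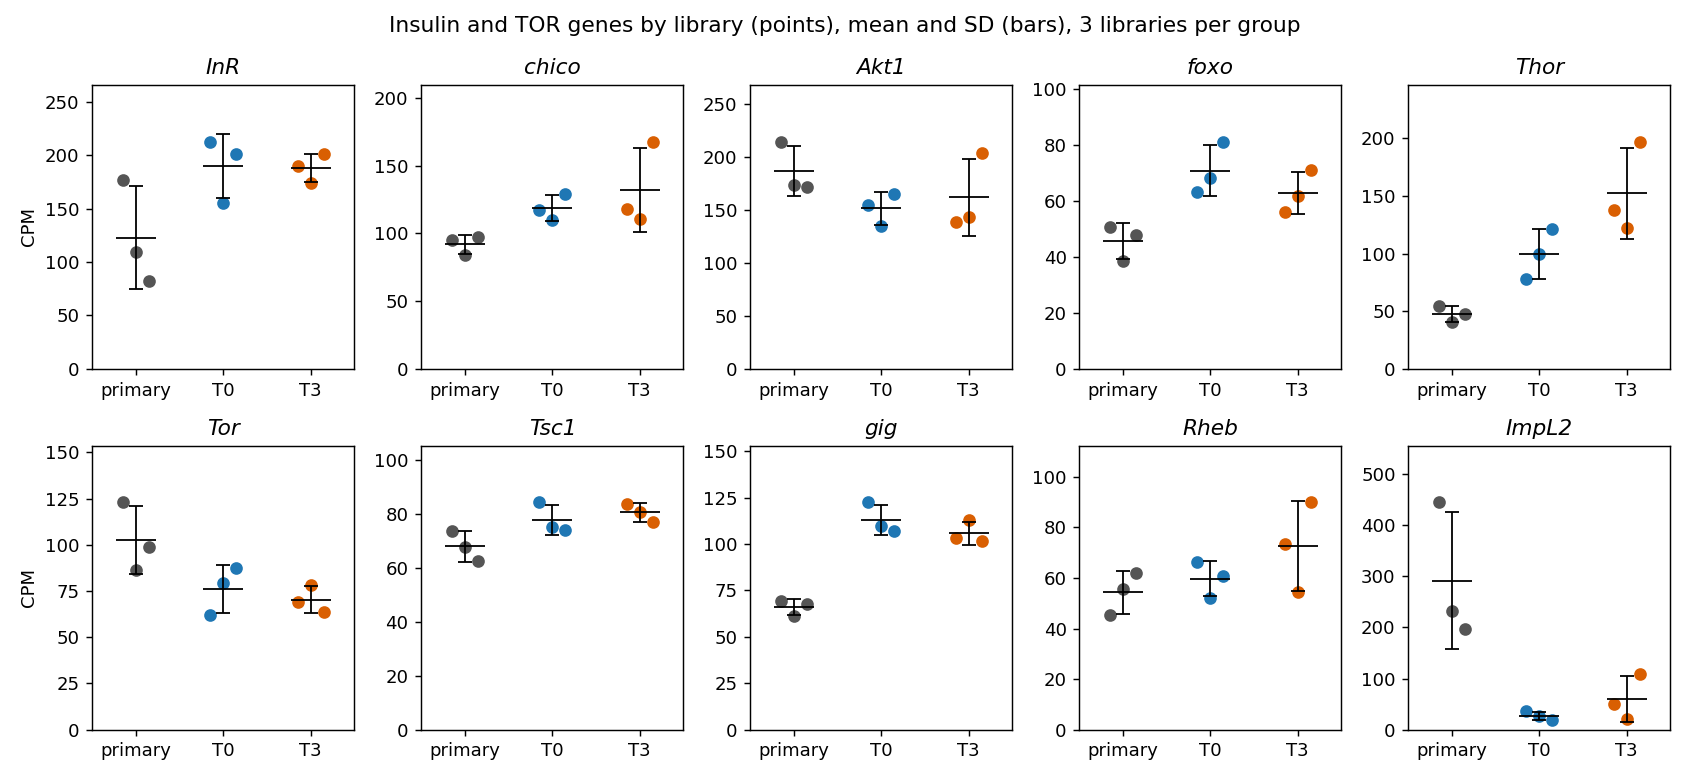
CPM of the 10 genes (vertical axes, each starting at 0) in the 3 primary, T0 and T3 libraries (points), with mean and SD as horizontal and vertical bars. ImpL2 drops from 198 to 444.5 CPM in primary to 19.7 to 109 CPM in the transplanted libraries, and Thor climbs from 40.7 to 54.8 CPM to 78.3 to 197 CPM.

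ImpL2 (chromosome arm 3L, 4224006 to 4236147, minus strand, dm6) encodes a secreted protein of the immunoglobulin family that binds insulin-like peptides and keeps them from the receptor. Values per library are given throughout in the order of primary replicates 1, 2 and 4, then T0 replicates 2, 3 and 4, then T3 replicates 2, 4 and 1. Its level was 444.5, 232 and 198 CPM in primary, against then 35.6, 26.4 and 19.7 CPM in T0 and 50.8, 20.2 and 109 CPM in T3. Every transplanted library lay below every primary library. The mean fell from 291.5 ± 134 to 27.2 ± 7.97 CPM in T0 (mean ± SD, n = 3 per group), a log2 fold change of -3.43 ± 0.52 (SE) with an adjusted p = 0.000249. In T3 it fell to 59.9 ± 45.0 CPM (-2.28 ± 0.49, adjusted p = 0.00246). The T3 libraries overlapped T0 and were the most spread of any group and gene among the 10, with an SD of 75.0% of the mean.

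The fall of ImpL2 in T3 depended in size, not in call, on single libraries: the log2 fold change was -3.04 without T3 replicate 1, -1.86 without T3 replicate 4 and -1.82 without primary replicate 1. The neuronal marker sum, given above, was also lower in both transplanted groups than in primary. From T0 to T3 the ImpL2 mean was higher, while this sum was at 355 to 549 CPM in T0 and 320 to 431.5 CPM in T3. The part of neurons in the fall of ImpL2 was not tested. The annotation used here puts the gene CG46460 on the same strand with 1651 exon bases shared with ImpL2. Reads in those bases could come from either gene.

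Transcripts of the ligand genes were almost absent from these libraries, and the peptides were not measured. Of 8 insulin-like peptide genes, Ilp6 and Ilp8 had enough counts to be tested. Ilp6, known as a peptide of fat body and glia, was at 0.375 to 0.646 CPM in primary, 0.662 to 1.02 CPM in T0 and 1.03 to 1.26 CPM in T3. Both transplanted groups lay above primary, yet neither difference was called (log2 fold changes 0.55 ± 0.49 and 1.04 ± 0.48, adjusted p = 0.385 and 0.0913). Ilp8, a relaxin-like peptide that delays metamorphosis when tissue is damaged, averaged 2.41 CPM in primary, 1.00 CPM in T0 and 1.37 CPM in T3, and was not called (adjusted p = 0.0541 and 0.165). Ilp2, a main peptide of the brain's insulin-producing cells, had 9 counts over the primary libraries, all in replicate 4, and 0 in T0 and T3. Ilp3 had 0 counts in all 9 libraries. The binding protein gene conv (the fly ALS, which forms a complex with ImpL2 and the peptides in the hemolymph) rose from 14.9 ± 1.60 to 43.4 ± 12.7 CPM in T0 (1.54 ± 0.21, adjusted p = 0.000102) and to 39.1 ± 3.85 CPM in T3 (1.39 ± 0.20, adjusted p = 0.000182). Its libraries did not overlap primary in either group, at most 16.1 CPM there and at least 31.5 CPM after transplantation.

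InR (3R, 21570248 to 21619321, minus strand) encodes the receptor tyrosine kinase at the head of the pathway and is itself a known foxo target. It was at 176, 109 and 82.6 CPM in primary, against 213, 156 and 201.5 CPM in T0 and 189.5, 174 and 201 CPM in T3. Primary replicate 1 lay within the range of the transplanted libraries, and the groups overlapped. The mean rose from 123 ± 48.3 to 190 ± 30.3 CPM in T0 (0.63 ± 0.23, adjusted p = 0.0430) and to 188 ± 13.5 CPM in T3 (0.61 ± 0.23, adjusted p = 0.0462).

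The calls for InR were the weakest of the 10 genes. They were lost in T0 without primary replicate 2 or 4, without T0 replicate 2 or 4, or without T3 replicate 1 or 2 (adjusted p = 0.0518 to 0.163). In T3 they were lost without primary replicate 2 or 4, T0 replicate 4 or any T3 replicate (adjusted p = 0.0545 to 0.169). With RLE scaling the adjusted p was 0.0604 in T0 and 0.0636 in T3, and in the fit on the 6 libraries compared it was 0.0588 in T0 and 0.0428 in T3. The test against a 1.5-fold change gave 0.516 and 0.530. Without primary replicate 1 the log2 fold change was 0.99 in both comparisons.

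chico (2L, 10242512 to 10247078, minus strand) encodes the receptor's adaptor, the fly insulin receptor substrate. It was at 94.9, 84.2 and 97.2 CPM in primary, against 117, 110 and 129 CPM in T0 and 118, 111 and 168 CPM in T3. All 6 transplanted libraries lay above the primary ones. chico rose in T3 (0.52 ± 0.16, adjusted p = 0.0193) but not past the threshold in T0 (0.37 ± 0.16, 95% interval 0.01 to 0.72, adjusted p = 0.0843). The T3 call was lost without T3 replicate 1 (0.32, adjusted p = 0.0991) or primary replicate 2 (0.46, adjusted p = 0.0690), and the T0 call was gained without T3 replicate 1 (adjusted p = 0.0358). The antisense gene CR44995, with 159 to 393 counts per library, shares 380 exon bases with chico. The strand setting of the counting is not given in the sources used here, so their reads cannot be told apart.

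Akt1 (3R, 16099228 to 16105670, plus strand), the kinase that carries the signal on, was not called in either comparison. Its values were 215, 174 and 172 CPM in primary, against 154.5, 135 and 165 CPM in T0 and 139, 143.5 and 204 CPM in T3. T0 lay just below primary without overlap, while T3 replicate 1 lay within the primary range. The log2 fold changes were -0.30 (95% interval -0.67 to 0.07, adjusted p = 0.165) in T0 and -0.21 (-0.57 to 0.16, adjusted p = 0.337) in T3.

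The other genes between receptor and Akt1 moved in both directions. Pi3K92E, the catalytic lipid kinase subunit, rose from 92.2 ± 10.7 to 133 ± 10.1 CPM in T0 (0.52 ± 0.13, adjusted p = 0.00669) and to 127 ± 10.7 CPM in T3 (0.46 ± 0.13, adjusted p = 0.0137). Its libraries did not overlap primary in either comparison. sgg, the fly GSK3, a kinase inhibited by Akt1, fell by 0.66 in T0 (adjusted p = 0.00449) and by 1.07 in T3 (adjusted p = 0.000182) on the log2 scale. Pdk1, the kinase that activates Akt1, was at 343, 194 and 157 CPM in primary against 141 to 180 CPM in all 6 transplanted libraries, a difference that did not pass (adjusted p = 0.0817 and 0.0729). The adaptor gene Lnk (0.24 in T0, adjusted p = 0.160) and trbl, an Akt1 inhibitor (0.39 in T3, adjusted p = 0.0573), did not pass either. Of the 11 genes listed from receptor to Akt1, InR, chico and Akt1 included, 3 rose and 2 fell in each comparison, near the 45.6% and 47.2% of all genes called, with medians of 0.24 in T0 and 0.17 in T3.

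foxo (3R, 14056945 to 14087978, plus strand) encodes the transcription factor that Akt1 holds in the cytoplasm and that switches on growth-restraining genes when insulin signalling is low. It was at 50.8, 38.6 and 47.9 CPM in primary, against 63.2, 68.2 and 81.1 CPM in T0 and 56.1, 61.8 and 71.0 CPM in T3. No transplanted library overlapped primary. foxo rose by 1.55-fold in T0 (0.63 ± 0.15, adjusted p = 0.00491) and by 1.38-fold in T3 (0.46 ± 0.15, adjusted p = 0.0251). The T3 call was lost without primary replicate 2 (adjusted p = 0.0958) or T3 replicate 1 (adjusted p = 0.0996). These are transcript levels, and the location of the protein was not measured.

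Thor (2L, 3478434 to 3479612, plus strand) encodes the 4E-BP, which binds the cap-binding protein eIF4E and holds back translation until Tor phosphorylates it; its gene is a classic foxo target. It was at 54.8, 40.7 and 47.9 CPM in primary, against 78.3, 100 and 121 CPM in T0 and 138, 122 and 197 CPM in T3. The 3 groups did not overlap: every T0 library lay above primary and every T3 library above T0. The difference between T3 and T0 was not called (adjusted p = 0.591). The mean rose from 47.8 ± 7.09 to 99.9 ± 21.6 CPM in T0, 2.09-fold (1.07 ± 0.21, adjusted p = 0.00141), and to 152 ± 39.5 CPM in T3, 3.19-fold (1.67 ± 0.21, adjusted p = 5.83e-05). Both calls held in all 18 alternatives run, the test against a 1.5-fold change included.

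Within T0, Thor was lowest in replicate 2, the library with the most hemocyte, gut and ovary marker reads. Without that library the T0 log2 fold change of Thor was 1.22. InR, Tsc1, gig, Rheb and ImpL2 had their highest T0 level in the same library. The part of host tissue in these levels was not tested. The binding partner of Thor, eIF4E1, was at 447.5 to 474 CPM in primary, 463 to 477.5 CPM in T0 and 487 to 528.5 CPM in T3. It was not called (0.03 ± 0.12 in T0 and 0.14 ± 0.12 in T3, adjusted p = 0.879 and 0.387).

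Of the 7 listed genes of foxo and its targets, 6 were tested. In T0, 4 of them rose and 0 fell, where 22.4% of all genes rose and 23.2% fell. In T3, 4 rose and 1 fell, where 23.1% of all genes rose and 24.1% fell. Of the 4, foxo, Thor and InR were described above, and the other was bmm, the lipase that mobilises stored fat. It was at 26.6 to 40.5 CPM in primary, 65.8 to 80.7 CPM in T0 and 89.1 to 104 CPM in T3 (1.11 ± 0.16 and 1.53 ± 0.16 against primary, adjusted p = 0.000201 and 1.75e-05). Its 3 groups did not overlap, yet T3 against T0 was not called (0.42 ± 0.16, adjusted p = 0.591). Between T3 and T0, 15.1% of all genes lay apart in this way. The lipase gene Lip4, at 1.67 CPM in primary and 0.660 CPM in T3, fell (-1.35 ± 0.51, adjusted p = 0.0465). daw, an activin-like ligand, averaged 2.03 ± 0.772 CPM in primary and 1.65 ± 1.69 CPM in T3. It was not called in either comparison (adjusted p = 0.397 and 0.750). upd2, a leptin-like cytokine gene, had 1 or 2 counts in each group and was not tested. Fat body cells also express bmm and Thor. Of the 6 fat body markers tested, Yp1, Yp2 and Yp3 rose in both comparisons and apolpp rose in T0 only. FASN1 and Lsd-1 were not called in either. In T3 replicate 1, Thor was at 197 CPM and bmm at 104 CPM. Of the tested fat body markers, Yp1 (1.61 CPM), Yp2, apolpp and FASN1 lay within their primary ranges in that library. There Yp3 (2.13 CPM) lay below its primary range and Lsd-1 (4.77 CPM) above it. The part of fat body cells in the rises of bmm and Thor was not tested.

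**Figure D2:**
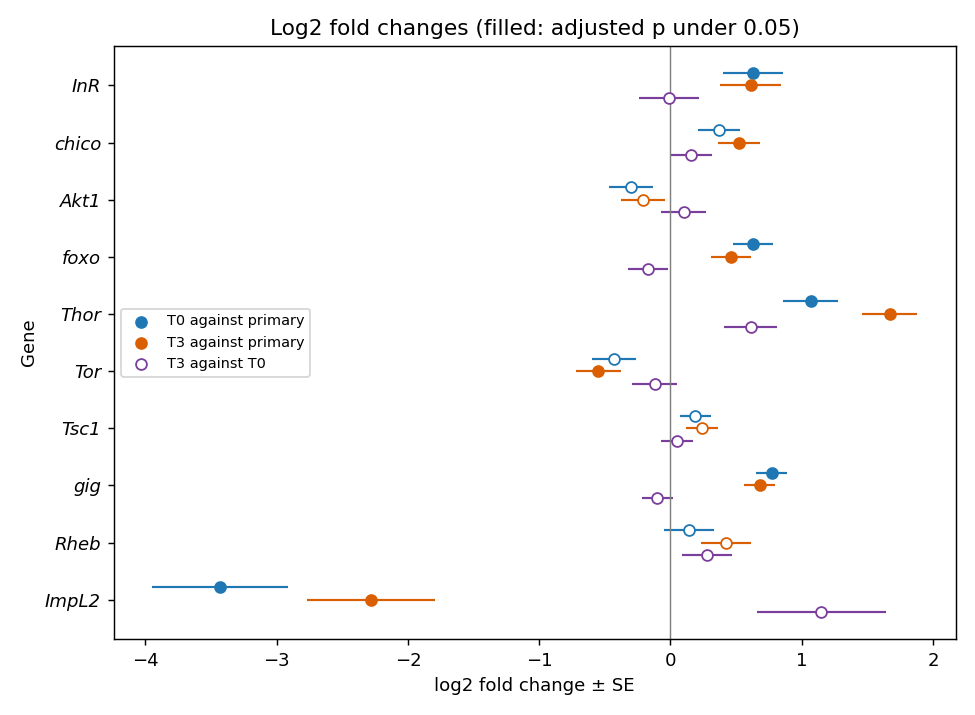
Log2 fold changes (horizontal axis) with SE of the 10 genes in 3 comparisons, filled where the adjusted p was under 0.05. Thor at 1.07 and 1.67 and ImpL2 at -3.43 and -2.28 lie farthest from 0, and no T3 against T0 value is filled.

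The TSC complex restrains Tor by making Rheb hydrolyse its GTP. Of its subunits gig was called and Tsc1 was not. gig (3L, 20129181 to 20139010, plus strand), the subunit that acts on Rheb, was at 69.2, 61.3 and 67.8 CPM in primary, against 122, 110 and 107 CPM in T0 and 103, 113 and 101 CPM in T3. All transplanted libraries lay well above primary, with an SD of at most 7.18% of the mean in each group, among the tightest of the 10 genes. gig rose in T0 (0.77 ± 0.12, adjusted p = 0.000279) and in T3 (0.68 ± 0.12, adjusted p = 0.000651). Its call held without any single library, and was lost in the test against a 1.5-fold change (adjusted p = 0.0842 and 0.258).

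Tsc1 (3R, 24130307 to 24134654, plus strand), the stabilising partner of gig, was at 73.9, 67.6 and 62.5 CPM in primary, against 84.3, 75.2 and 73.9 CPM in T0 and 83.9, 80.9 and 77.1 CPM in T3. The transplanted libraries lay above primary by a narrow margin. The differences were not called: 0.19 in T0 (95% interval -0.07 to 0.45, adjusted p = 0.206) and 0.24 in T3 (-0.01 to 0.50, adjusted p = 0.110).

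The CPM of gig divided by that of Tsc1 in the same library was 0.936, 0.907 and 1.09 in primary, against 1.45, 1.46 and 1.45 in T0 and 1.23, 1.39 and 1.32 in T3. The 3 groups did not overlap. On the log2 scale the ratio was higher by 0.58 in T0 and by 0.43 in T3. A two-sided exact permutation test of 3 against 3 libraries gave p = 0.1 for each, the smallest it can give, and 0.15 after Benjamini-Hochberg adjustment over the 6 ratio tests run. This ratio and that of Rheb to gig were chosen after the values were seen.

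Rheb (3R, 5568921 to 5570491, plus strand), the GTPase that activates Tor, was at 45.2, 55.6 and 62.1 CPM in primary, against 66.2, 52.2 and 60.8 CPM in T0 and 73.6, 54.5 and 89.8 CPM in T3. All groups overlapped. Rheb was not called in T0 (0.14, 95% interval -0.27 to 0.54, adjusted p = 0.574) or in T3 (0.42, 0.02 to 0.83, adjusted p = 0.0804). Without T3 replicate 4 the T3 difference was called (0.59, adjusted p = 0.0175). The ratio of Rheb to gig was 0.654 to 0.916 in primary and 0.476 to 0.567 in T0 without overlap (exact permutation p = 0.1, adjusted 0.15), while T3 at 0.483 to 0.886 overlapped both.

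Tor (2L, 13004480 to 13013197, plus strand) encodes the kinase on which these inputs meet. It was at 123, 86.5 and 98.8 CPM in primary, against 61.8, 79.2 and 87.2 CPM in T0 and 69.1, 78.2 and 63.5 CPM in T3. T0 replicate 4 lay just above the lowest primary library, and T3 lay fully below primary. Tor fell in T3 (-0.55 ± 0.17, adjusted p = 0.0176) and lay just outside the threshold in T0 (-0.43 ± 0.17, adjusted p = 0.0511). The authors' deposited table gives Tor in T0 an adjusted p of 0.0379. The T3 call was lost without primary replicate 1 (-0.37, adjusted p = 0.0971), T3 replicate 1 (adjusted p = 0.0731) or T3 replicate 2 (adjusted p = 0.0525). In T0, leaving out primary replicate 1 gave -0.27. Tor was called in T0 in 6 of the 18 alternatives: without primary replicate 2 (adjusted p = 0.0318) or T0 replicate 4 (adjusted p = 0.0394), with RLE factors (0.0476), upper quartile factors (0.0453) or no low count filter (0.0368), and by DESeq2 (0.0471).

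Among the partners of Tor, 1 gene was called in T0 and in T3. The gene raptor, the scaffold of the growth complex TORC1, averaged 76.4, 88.1 and 82.1 CPM in primary, T0 and T3, and rictor, its counterpart in TORC2, 169, 203 and 173 CPM. Both stayed short of the threshold, with adjusted p = 0.288 and 0.605 for raptor and 0.213 and 0.887 for rictor. Lst8, a shared subunit, differed by 0.31 in T3 (adjusted p = 0.0953). Lobe (symbol L), the fly PRAS40 and an inhibitor of TORC1, rose from 71.0 ± 20.0 to 125 ± 16.4 CPM in T0 (0.82 ± 0.18, adjusted p = 0.00322) and to 158 ± 6.83 CPM in T3 (1.16 ± 0.18, adjusted p = 0.000309). Of the 6 genes of the Tor complexes, Tor included, 1 rose and 0 fell in T0, and 1 rose and 1 fell in T3. Over all genes, 45.6% were called in either direction in T0 and 47.2% in T3.

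Levels can be set against each other between genes only per length, so CPM were divided by the kilobases of exon in the annotation. In primary, ImpL2 was highest of the 10 genes at 109 ± 50.1 CPM per kilobase, followed by Thor at 63.3 ± 9.38 and Rheb at 44.3 ± 6.97. In T0, Thor led at 132 ± 28.6 CPM per kilobase, Rheb came next at 48.8 ± 5.75, and ImpL2 was 9th at 10.2 ± 2.99. In T3, Thor led at 202 ± 52.3 CPM per kilobase and Tor was lowest at 8.79 ± 0.926. gig stood below Tsc1 in primary, at 11.4 ± 0.723 against 17.4 ± 1.47 CPM per kilobase, and close to it in T0, at 19.5 ± 1.40 against 20.0 ± 1.45. In T3, gig lay below Tsc1 without overlap, at 18.2 ± 1.05 against 20.7 ± 0.879. Not every step in this order is larger than the spread: neighbours overlapped over libraries in 4 of 9 steps in primary, 5 in T0 and 6 in T3. In primary, Tor, gig, foxo and InR formed a run of overlapping neighbours at 10.8 to 12.9 CPM per kilobase, and Rheb and Akt1 overlapped too.

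**Figure D3:**
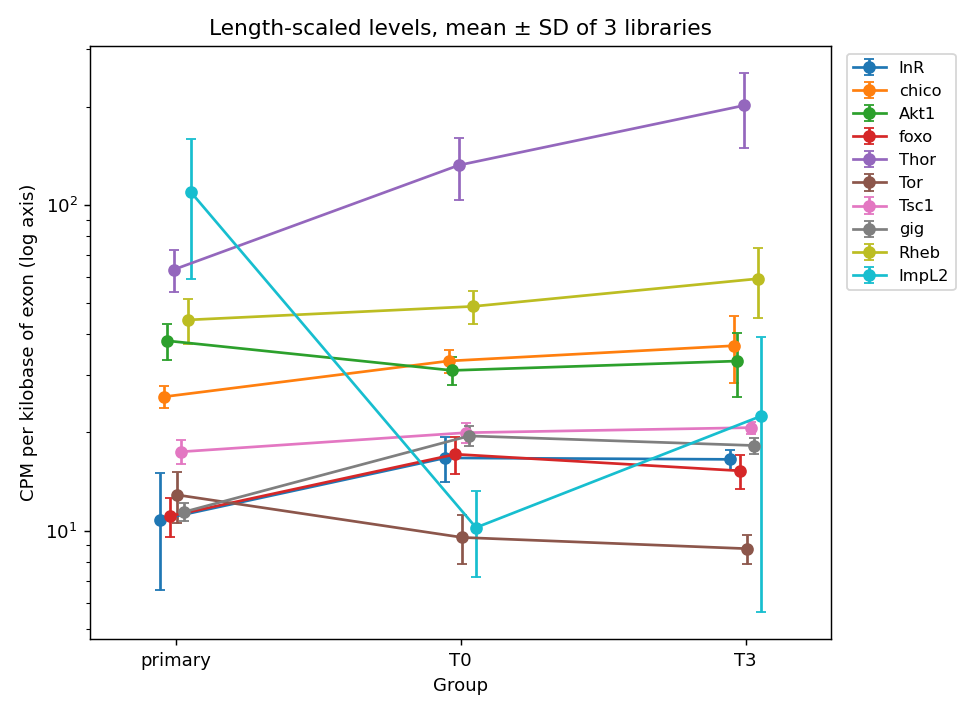
Mean CPM per kilobase of exon (log vertical axis) ± SD of the 10 genes in primary, T0 and T3, with 3 libraries each. Thor rises from 63.3 to 202 and becomes the highest, while ImpL2 drops from 109 to 10.2 in T0 and has the widest error bar in T3.

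The rest of the pathway was described from lists that hold 63 further genes, of which 53 were tested. In T0, 19 of these rose and 6 fell, where 22.4% of all genes rose and 23.2% fell. In T3, 18 rose and 7 fell, where 23.1% of all genes rose and 24.1% fell. In either direction, 25 of 53 were called each time, near the 45.6% and 47.2% of all genes. The median log2 fold changes of the 53 genes were 0.21 and 0.18.

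In the list of amino acid sensing on the lysosome, 6 of 15 tested genes rose and 1 fell in each comparison. Among all genes, 22.4% rose and 23.2% fell in T0, and 23.1% rose and 24.1% fell in T3. In either direction, 7 of 15 were called, where 45.6% and 47.2% of all genes were. Iml1, a subunit of the GATOR1 complex that restrains TORC1 when amino acids are scarce, rose from 103 ± 15.6 to 292 ± 91.3 CPM in T0 (1.5 ± 0.21, adjusted p = 0.000131) and to 221 ± 22.2 CPM in T3 (1.10 ± 0.21, adjusted p = 0.000990). The other GATOR1 subunits listed, Nprl2 and Nprl3, averaged 14.6 to 21.9 CPM in all groups and were not called. mio, of the opposing GATOR2 complex, rose from 36.5 ± 4.79 to 62.4 ± 3.21 and 66.2 ± 4.95 CPM (0.77 ± 0.13 and 0.86 ± 0.13, adjusted p = 0.000586 and 0.000256). RagC-D, a GTPase that brings TORC1 to the lysosome, rose by 0.68 ± 0.14 in T0 and by 0.98 ± 0.14 in T3 on the log2 scale (adjusted p = 0.00211 and 0.000165), while its partner RagA-B was not called (0.12 ± 0.19 and 0.22 ± 0.19). The gene that fell was path, an amino acid transporter needed for growth, from 1188 ± 242 to 541 ± 70.6 and 420 ± 52.4 CPM (-1.14 ± 0.18 and -1.50 ± 0.19, adjusted p = 0.000421 and 5.41e-05). Its lowest primary library, at 941 CPM, lay above the highest transplanted one, at 603 CPM. Sesn, a stress-induced TORC1 inhibitor, had 41 to 60 counts per group and was not called. Lamtor1 (0.43 in T0, adjusted p = 0.0847) and Wdr59 (0.48 in T3, adjusted p = 0.0679) did not pass.

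Among the outputs of Tor, 6 of 12 tested genes rose and 0 fell in each comparison, Thor among them. Over all genes, 22.4% rose and 23.2% fell in T0, and 23.1% rose and 24.1% fell in T3. REPTOR-BP, the partner of the transcription factor REPTOR that acts when TORC1 is low, rose from 75.8 ± 16.0 to 147 ± 13.1 CPM (0.96 ± 0.16, adjusted p = 0.000526) and 179 ± 9.48 CPM (1.24 ± 0.16, adjusted p = 7.47e-05). REPTOR itself averaged 214 ± 72.0, 193 ± 22.6 and 158 ± 10.1 CPM, which did not pass (adjusted p = 0.584 and 0.106). Mitf, a regulator of lysosomal genes, rose by 1.06 ± 0.16 in T0 (adjusted p = 0.000273) and by 0.65 ± 0.16 in T3 (adjusted p = 0.00582) on the log2 scale. SREBP, a regulator of lipid synthesis, rose by 1.02 ± 0.18 and 0.75 ± 0.18 (adjusted p = 0.000843 and 0.00549), and the growth regulator Myc rose in both (adjusted p = 0.00581 and 0.00444). unk, a zinc finger gene that acts below Tor in neuron differentiation, rose by 0.83 ± 0.17 and 0.73 ± 0.17 (adjusted p = 0.00179 and 0.00374). The kinase gene S6k averaged 220 ± 38.0, 278 ± 47.4 and 248 ± 39.7 CPM, which did not pass (adjusted p = 0.143 and 0.441). RpS6, which S6k phosphorylates, averaged 3006 ± 516, 2984 ± 868 and 2828 ± 370 CPM, also short of the threshold. The autophagy gene Atg1 (log2 fold changes 0.17 and -0.03) and its partner Atg13 (0.17 and 0.08) were not called. Phosphorylation, by which Tor acts on these proteins, was not measured.

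AMPK is an energy sensor that restrains TORC1, and the transcripts of its 3 subunits rose in both comparisons. Of the 6 genes listed as energy and stress inputs, 3 rose and 1 fell in each comparison. Over all genes, 22.4% rose and 23.2% fell in T0, and 23.1% rose and 24.1% fell in T3. SNF4Agamma, the regulatory subunit, went from 139 ± 17.7 to 325 ± 20.6 CPM in T0 (1.23 ± 0.14, adjusted p = 3.69e-05) and 297.5 ± 25.9 CPM in T3 (1.10 ± 0.14, adjusted p = 6.93e-05). AMPKalpha, the kinase, rose by 0.66 ± 0.12 and 0.59 ± 0.12 on the log2 scale (adjusted p = 0.000733 and 0.00155), and alc, the beta subunit, by 0.47 ± 0.12 and 0.53 ± 0.12 (adjusted p = 0.00698 and 0.00317). The libraries of these subunits lay above primary without overlap, as they did for 27.4% of all genes in T0 and 28.9% in T3. Lkb1, the kinase that activates AMPK, averaged 38.4 ± 7.24, 42.7 ± 2.66 and 40.6 ± 1.48 CPM, which did not pass (adjusted p = 0.438 and 0.684). scyl, the fly REDD and a brake on Tor under low oxygen, fell from 309 ± 27.1 to 145 ± 56.0 CPM in T0 (-1.09 ± 0.27, adjusted p = 0.00563) and to 157 ± 41.1 CPM in T3 (-0.98 ± 0.27, adjusted p = 0.00989). Its paralogue chrb averaged 178 ± 19.8, 139 ± 48.6 and 134 ± 26.7 CPM, which did not pass (adjusted p = 0.248 and 0.181).

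The largest changes among the listed genes were in the parallel Alk route. The receptor gene Alk was at 66.2, 35.3 and 45.3 CPM in primary replicates 1, 2 and 4, at 0.824 to 2.21 CPM in T0 and at 0.941 to 1.26 CPM in T3. It fell by 4.90 ± 0.34 in T0 and by 5.56 ± 0.36 in T3 on the log2 scale (adjusted p = 8.9e-07 and 4.66e-07). The gene of its ligand, jeb, had 1443 counts over the primary libraries, 18 over T0 and 10 over T3, with log2 fold changes of -6.14 ± 0.41 and -6.98 ± 0.44 (fell, adjusted p = 7.52e-07 and 4.06e-07). Alk and jeb are also genes of neurons, and 9 of 10 neuronal markers fell and 1 rose in each comparison, with median log2 fold changes of -4.06 and -4.31. The part of neurons in the fall of Alk and jeb was not tested.

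**Figure D4:**
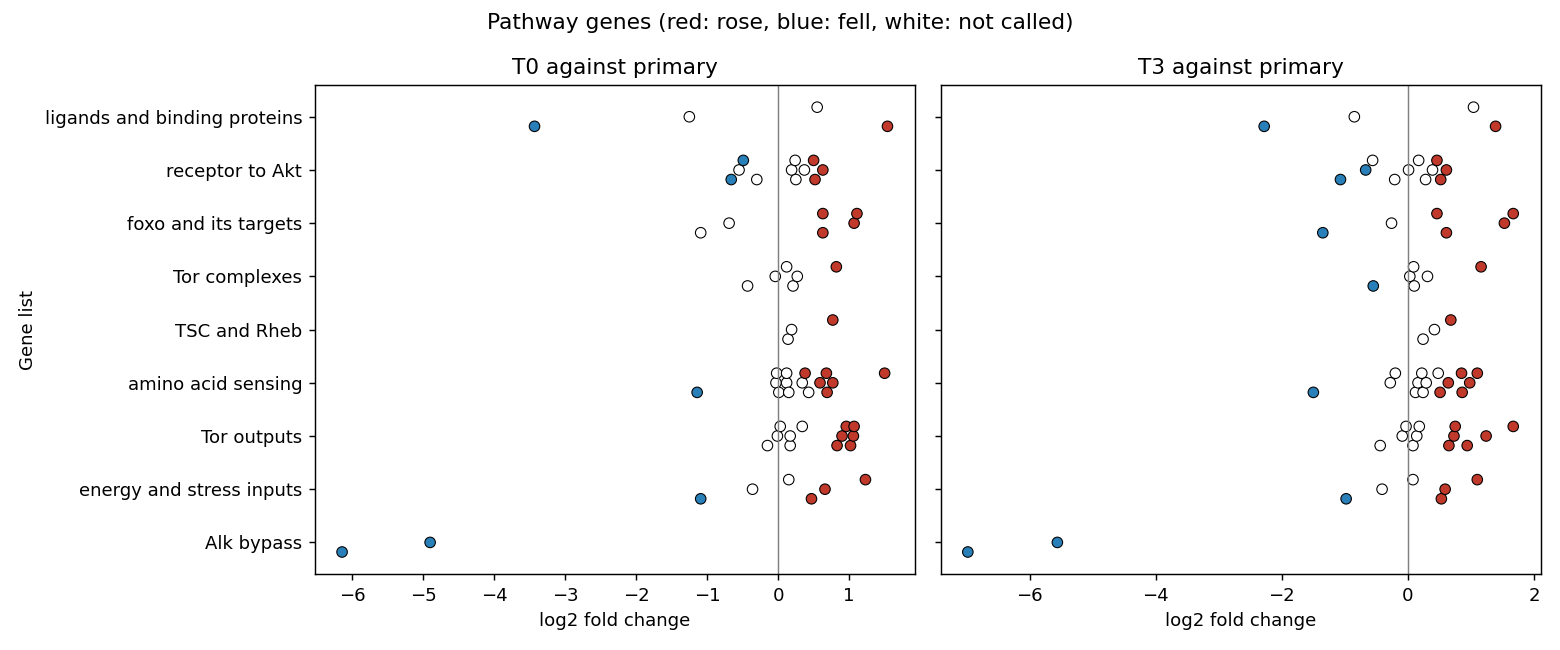
Log2 fold changes (horizontal axes) of the tested genes of 9 pathway lists in T0 (left) and T3 (right) against primary, each point 1 gene, red where it rose, blue where it fell and white where it was not called. Alk and jeb lie at -4.90 and -6.14 in T0, while the other points lie between ImpL2 at -3.43 and conv at 1.54.

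T3 and T0 were set against each other to ask whether serial transplantation moved the pathway further. None of the 10 genes was called by edgeR's quasi-likelihood test, where 0% of all genes were. At an unadjusted p under 0.05, 2 of the 10 passed (Thor and ImpL2), beside 746 of 9082 genes. DESeq2 and limma-voom called 0 of the 10 as well. Thor was higher in every T3 library than in every T0 library, at 122 to 197 against 78.3 to 121 CPM (0.61 ± 0.20, 95% interval 0.16 to 1.05, adjusted p = 0.591). It was the 1 gene of the 10 whose libraries lay apart, as they did for 15.1% of all genes (7.33% higher in T3, 7.8% lower). Without T3 replicate 1 its log2 difference was 0.38.

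ImpL2 was higher in T3 by 1.15 ± 0.49 on the log2 scale (95% interval 0.09 to 2.21, adjusted p = 0.591), with overlapping libraries. Without T3 replicate 1 this difference was 0.38, and with no low count filter it was called (1.16, adjusted p = 0.00692). For the other 8 genes the differences lay between -0.17 (foxo) and 0.28 (Rheb). T3 replicate 1 was the highest T3 library for 7 of the 10 genes, and primary replicate 1 was the highest primary library for 8. In T0, replicates 2 and 4 were highest for 5 each. How often these libraries were highest over all genes was not counted.

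Across the 9 libraries, the genes with the profile most like that of InR were CG8083, CG11880 and let-7-C (Pearson r of log2 CPM 0.982, 0.971 and 0.954). For Thor they were CG7083, CG2818 and Aats-leu, the leucyl-tRNA synthetase gene (0.973, 0.970 and 0.969). For ImpL2 they were the acetylcholine receptor gene nAChRalpha7, the cuticle protein gene Cpr64Ac and CG13868 (0.987, 0.981 and 0.973). These values describe likeness over 9 libraries that fall into primary and transplanted, which alone ties together any genes that differ between them.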

How the data were processed

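The authors deposited 3 tables, 1 per comparison, which hold the same raw read counts for 16727 gene symbols in 9 libraries. Per the labels, poly(A) libraries had 13 PCR cycles and were read as single 75 nt reads. For alignment and counting, the tools listed in the submitters' processing notes are HTSeq, HISAT2 2.1.0, edgeR and bedtools 2.25.0, with the build dm6. No source used here gives the annotation release or the strand setting. The deposited tables also give the authors' fold change as a ratio, its log2 value and their p-values; the adjusted p-values for the 10 genes were read. Another 13 value columns per table were not used, and 0 lines lacked a gene name.

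The test was the quasi-likelihood test of edgeR 4.0.16 (R 4.3.3) with TMM scaling, after filterByExpr (minimum count 10, 9082 genes kept). The 9 libraries entered a single fit with group means, and p-values were adjusted over all genes by Benjamini-Hochberg. The fit was tested on simulated data. All p-values are two-sided. Except in the permutation tests, they set a difference between groups against the spread between these libraries. Alternatives were RLE and upper quartile scaling, 2 other filters, DESeq2 1.42.0, limma-voom (limma 3.58.1), a test against a 1.5-fold change, a block for the replicate number, fits on only the 6 libraries of a comparison, and leaving out each library. Symbols, gene positions and exon lengths come from RefSeq synonyms and the Ensembl annotation in dm6 coordinates. Of the 135 symbols looked up, 19 needed a synonym or locus tag and 1 (eEF2K) was not matched.

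Named are all 10 genes and, per pathway list and comparison, up to 3 called genes and up to 2 others with the smallest p. RagA-B, Nprl3, RpS6, Atg1, Ilp2, Ilp3 and others beside these were named after their values were seen. The genes and lists were chosen with earlier results of these data known. Promoter and protein sequences were not analysed here. A gene named by this rule is not reported here.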

Additional observations from a re-analysis of the deposited data

How the results depend on the processing

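The calls of Thor and ImpL2 against primary held in all 18 alternatives, and those of gig in 17. The number of the 10 genes called stayed within 1.5 times of the main count except as follows. The test against a 1.5-fold change called 2 in T0 and 2 in T3 against primary (10 and 12 of the 53 other pathway genes, 1898 and 2006 of all genes); it asks for a larger difference by construction. Leaving out 1 library gave 4 to 5 in T0, 3 to 7 in T3 and 0 to 0 in T3 against T0. No low count filter called 1 of the 10 (ImpL2) in T3 against T0 and 96 of all genes. Of all genes in T3 against T0, DESeq2 called 13, and leaving out 1 library gave 0 to 5; the cause was not tested. The replicate number as a block called 5 of all genes there, 6 of the 10 in T0 (chico added) and 7 in T3. Titles share numbers without saying what they mark. Same-numbered primary and T3 libraries had deviations that correlated at 0.12, 0.15 and 0.01 (replicates 1, 2 and 4), and different-numbered ones at -0.19 to 0.07. Primary replicate 4 correlated more with T3 replicate 2 (0.07). Same-numbered primary and T0 libraries gave -0.06 and -0.05 (replicates 2 and 4), and different-numbered ones -0.18 to 0.15. Same-numbered T0 and T3 libraries gave 0.20 and 0.26 (replicates 2 and 4), and different-numbered ones -0.45 to 0.33. These values do not settle whether the numbers mark pairs, and they were not taken as pairs. Differences near 0 changed sign in T3 against T0: InR to 0.01 with upper quartile factors and 0.01 with no filter (-0.14 to 0.08 without single libraries), chico to -0.02 and Akt1 to -0.14 with the block (-0.05 to 0.27 and -0.10 to 0.20 without single libraries). RLE and upper quartile factors moved the median of all genes by at most 0.023. Rheb in T3 was called in 2 of the 18 alternatives and Tsc1 in T3 in 1.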
